A study of Mus musculus with 48 samples.

Results

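The 10 genes described here encode enzymes that build or recycle purine nucleotides: Paics, Ppat, Gart, Pfas, Adsl, Atic, Gmps, Impdh2, Hprt and Aprt. They were taken by symbol from a matrix of 55376 mouse genes, and all 10 are among the 8017 genes used for testing, whose mean count lay at least 10-fold above background. The genes were chosen by pathway, and selected with the nascent counts in view: Paics and Hprt were already known from these data to have low counts in the libraries labelled Chd4 shRNA against scrambled. Values of the 10 genes in that comparison are therefore descriptions without a test, while the comparison of BRM014 with DMSO was tested.

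Purine nucleotides are made in 2 ways. In the de novo route, the sugar phosphate PRPP receives atom after atom from glutamine, glycine, formyl folate, carbon dioxide and aspartate until inosine monophosphate (IMP) is complete, and IMP is then turned into AMP or GMP. In the salvage route, a free base is joined to PRPP in a single reaction. Embryonic stem cells divide quickly with a short G1 phase, and so have a steady demand for nucleotides.

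The cells, of strain C57BL/6, were embryonic stem cells of the line TCF2.2, grown in serum-free 2i medium. All groups received 500 µM 4-thiouridine for 5 min, so that the RNA captured and sequenced was newly made. The first group was given 10 µM BRM014, an inhibitor of the ATPases BRM and BRG1 of the SWI/SNF chromatin remodelling complexes, for 3 h, and its controls received the solvent DMSO for 3 h. The other 2 groups were transduced with lentivirus carrying an shRNA against Chd4, the ATPase of the NuRD remodelling complex, or a scrambled shRNA, and were then kept for 24 h in 1.5 µg/mL puromycin. Each of the 4 groups has 2 libraries, which the series calls biological duplicates of this 1 line. ERCC RNAs, synthetic spike-ins, were added in proportion to the number of cells.

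Gene counts summed to 7461362 and 6982354 in the Chd4 shRNA libraries and to between 11298835 and 17128981 in the other 6. Background, measured on 1434 olfactory and vomeronasal receptor genes, would account for 11.9% and 13.6% of the counts in the Chd4 shRNA libraries and for 1.45% to 2.38% in the other 6. Chd4 itself had counts of 730 and 760 under the Chd4 shRNA label against 806 and 618 in scrambled libraries, and relative to other expressed genes it was higher (log2 fold change 0.59 ± 0.16 SE, adjusted p = 0.0061, n = 2 and 2). An shRNA acts on finished RNA, so nascent counts do not show whether the knockdown worked, and these libraries are named by their label throughout. All 12 stem cell markers checked were more than 3-fold above background in the DMSO, BRM014 and scrambled libraries and 11 of 12 in those labelled Chd4 shRNA. Their summed level was 2852 to 3371 CPM (the count of a gene relative to the TMM-scaled total of the expressed genes in its library) in DMSO, 3038 to 3152 with BRM014, 2928 to 3005 in scrambled and 1898 to 1935 in Chd4 shRNA libraries. Markers of 5 other cell types summed to at most 42.7 CPM per type in DMSO, BRM014 and scrambled libraries and to 27.0 to 76.6 in Chd4 shRNA libraries, where background alone would give 18 to 47.9. Between 0 and 3 of the 5 to 7 markers of each such type were over 3-fold above background, and Mesp1 had a count of 0 in scrambled libraries. In bulk RNA, fewer cells of a type and less RNA per cell cannot be told apart. Whether these shifts have a part in the differences below was not tested.

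The members whose counts moved apart include a pair that starts back to back. Paics lies at chr5:76951307-76967509 on the plus strand of mm10, and Ppat at chr5:76913249-76951578 on the minus strand. Their annotated 5′ ends overlap by 272 bases. The stretch upstream of either start thus lies within the other gene. Hprt lies at chrX:52988137-53021659 on the plus strand and Aprt at chr8:122574635-122576909 on the minus strand. The windows below are the 250 bases upstream of the RefSeq start on GRCm38.p6, written 5′ to 3′ on the strand of each gene, and are shown because they let the back-to-back pair and both salvage genes be compared. Capitals mark the E-box CACGTG, the CCAAT box CCAAT and the GC box GGGCGG, each searched on both strands.
Paics: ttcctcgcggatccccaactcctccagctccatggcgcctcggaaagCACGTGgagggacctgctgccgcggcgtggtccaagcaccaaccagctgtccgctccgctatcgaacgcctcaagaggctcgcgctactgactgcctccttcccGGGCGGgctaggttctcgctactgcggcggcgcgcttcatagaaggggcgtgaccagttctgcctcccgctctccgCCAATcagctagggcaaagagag
Ppat: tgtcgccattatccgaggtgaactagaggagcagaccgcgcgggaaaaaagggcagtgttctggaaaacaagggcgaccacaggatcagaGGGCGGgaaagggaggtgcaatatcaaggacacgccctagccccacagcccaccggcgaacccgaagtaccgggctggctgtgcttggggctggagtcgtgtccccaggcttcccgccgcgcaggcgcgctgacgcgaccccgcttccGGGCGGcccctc
Hprt: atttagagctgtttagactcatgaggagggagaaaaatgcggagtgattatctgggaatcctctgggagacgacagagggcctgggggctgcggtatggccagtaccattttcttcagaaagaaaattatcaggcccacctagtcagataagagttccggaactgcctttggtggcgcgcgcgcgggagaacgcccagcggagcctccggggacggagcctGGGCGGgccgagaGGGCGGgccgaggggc
Aprt: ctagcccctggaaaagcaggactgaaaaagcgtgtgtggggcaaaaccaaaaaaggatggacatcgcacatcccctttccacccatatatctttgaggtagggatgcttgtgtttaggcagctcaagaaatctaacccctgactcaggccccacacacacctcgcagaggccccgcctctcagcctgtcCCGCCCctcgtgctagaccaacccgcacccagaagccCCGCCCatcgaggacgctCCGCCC
These windows cover chr5:76951052-76951301 for Paics, chr5:76951579-76951828 for Ppat, chrX:52987828-52988077 for Hprt and chr8:122576908-122577157 for Aprt. Paics has all 3 motifs, with the E-box 203 bases and the CCAAT box 23 bases before its start. The windows of Ppat, Hprt and Aprt hold 2, 2 and 3 GC boxes and neither of the other motifs. By symbol, 9 of the 10 genes matched a window, all but Pfas. A GC box occurs in 9 of these 9 windows against 32.7% of 32817 windows of all genes. The E-box occurs in 3 of 9 (Paics, Atic and Impdh2) against 6.02%, and the CCAAT box in 3 of 9 (Paics, Gart and Atic) against 33.8%. The motifs were chosen with the windows in view, the GC content of the 9 windows is 51.2% to 68.8% against a median of 52.4% over all windows, and no matches of different motifs share bases. A match to these letters is not evidence of a bound factor.

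Across the DMSO libraries the genes covered a wide range of levels. Levels are given here as CPM per kb of exon after subtraction of background, since genes of different length can be compared only per length. Background was taken from the count of each gene and not from the library total, which held most background in the Chd4 shRNA libraries. Levels of 1 gene in different groups are therefore not set on equal totals. Aprt, which joins adenine to PRPP, was highest at 128 ± 14.2 (SD, n = 2). Paics at 68.1 ± 7.56 and Hprt at 62.0 ± 1.18 followed, and their libraries overlapped. Impdh2 stood at 36.2 ± 0.48, Gart at 16.5 ± 1.49 and Adsl at 10.2 ± 0.68, each with both libraries below the gene before it. Ppat at 6.41 ± 0.47, Atic at 5.42 ± 0.74, Pfas at 5.11 ± 0.71 and Gmps at 4.43 ± 0.84 formed the low end, where Atic, Pfas and Gmps overlapped their neighbours.

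The order differed little with BRM014 and in the scrambled libraries. With BRM014 the libraries of Paics (81.1 ± 0.89) lay above those of Hprt (64.3 ± 2.55, n = 2 each), and in the scrambled libraries Hprt (65.9 ± 10.0) and Paics (58.0 ± 3.45) overlapped. In the Chd4 shRNA libraries Aprt was still the highest at 79.3 ± 11.9, while Hprt was at 20.3 ± 2.11 and Paics at 15.9 ± 0.79, the latter overlapping Impdh2 at 16.8 ± 1.04. Pfas moved up to the sixth place at 6.95 ± 0.38, above Adsl at 5.65 ± 0.15.

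**Figure D1:**
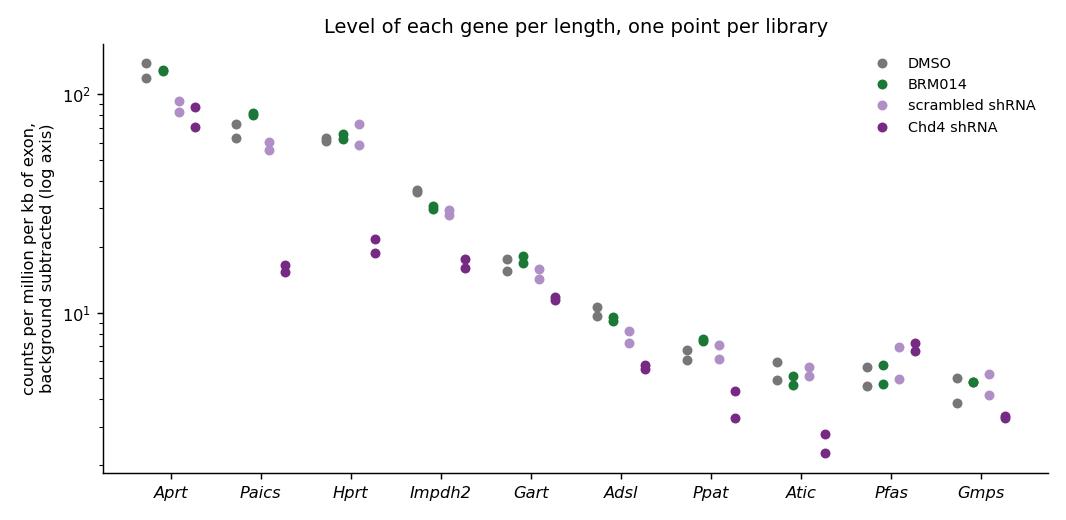
Level of each of the 10 genes in the 8 libraries, as CPM per kb of exon less background, on a log axis, with genes ordered by their DMSO mean and 1 point per library. Paics and Hprt follow Aprt in DMSO and stand at about the level of Impdh2 in the Chd4 shRNA libraries, while Aprt remains highest in each group.

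Under BRM014, none of the 10 genes passed the test. The count was 0 of 10 at an adjusted p under 0.05, where 7.15% of the 8017 expressed genes were called (2.46% higher and 4.69% lower). It was also 0 with DESeq2, where 303 of the 8017 were called. Of the 10, 1 gene, Impdh2, had an unadjusted p under 0.05, as did 1678 of the 8017. Log2 fold changes of the 10 ranged from -0.26 to 0.25, with a median of 0.04 against a median of -0.0049 over all expressed genes. Both BRM014 libraries lay above both DMSO libraries for 2 genes, Paics and Ppat (23.6% of all expressed genes did so), and below them for 2, Impdh2 and Adsl (24.6%). A p above the threshold does not show that a gene kept its level, and with SEs of 0.12 to 0.15 small changes could not be resolved.

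Under the Chd4 shRNA, 9 of the 10 log2 fold changes against scrambled were below 0, and 2 genes, Paics and Hprt, stood at -1 or lower, where 3.34% of expressed genes stood. In CPM with background included, both libraries labelled Chd4 shRNA lay below both scrambled libraries for 7 genes (36.8% of expressed genes). They lay above them for 1, Pfas (37.3%). The median of the 10 was -0.36 against 0.0053 over all expressed genes. These counts include the genes whose fall was known beforehand. They are relative to the typical expressed gene, and with 3 spike-in scalings, which raise the median expressed gene by 0.18 to 0.59, the median of the 10 was -0.17, 0.11 and 0.26. The libraries of both shRNA groups and of both drug groups were handled differently, and values of the 2 comparisons are set side by side without a test of their difference.

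**Figure D2:**
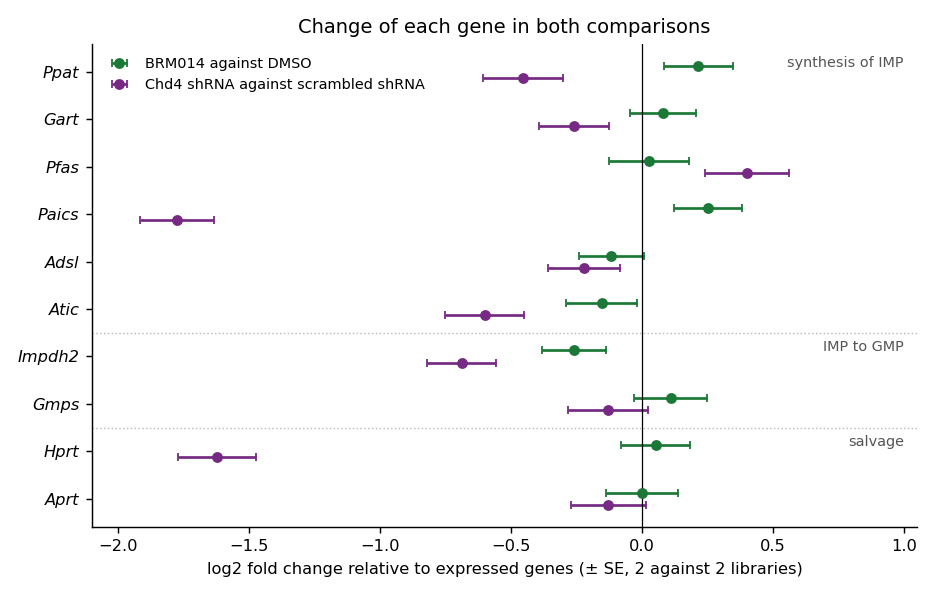
Log2 fold change of each gene relative to the typical expressed gene, with SE from the fit of all 8 libraries (2 against 2), ordered by role and shown for BRM014 against DMSO (green) and Chd4 shRNA against scrambled shRNA (purple). The green points stay between -0.26 and 0.25, and the purple points of Paics (-1.77) and Hprt (-1.62) stand far to the left of the other 8.

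De novo synthesis opens with Ppat, the amidotransferase that commits PRPP to the purine route. It had 446 and 536 counts in DMSO, 427 and 590 with BRM014, 280 and 248 in scrambled and 120 and 148 in Chd4 shRNA libraries. As CPM these were 27.6 and 30.4, 34.1 and 33.3, 32.2 and 28, and 19.4 and 24.5. Both Chd4 shRNA libraries were the lowest of the 8, and both BRM014 libraries the highest. The change with BRM014 was 0.21 ± 0.13 (SE, adjusted p = 0.385, n = 2 and 2), and that with the Chd4 shRNA was -0.45 ± 0.15. Background would make up 25.0% and 21.5% of the Ppat counts in the Chd4 shRNA libraries, and after its subtraction the change was -0.57. With TMM scaling over abundant ERCC RNAs it was 0.03 and with plain ERCC sums 0.17. Without Chd4 shRNA replicate 1 it was -0.29.

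Gart, an enzyme with several active sites that adds glycine and a formyl group, followed with 80.4 and 91.2 CPM in DMSO, 93.9 and 87.6 with BRM014, 82.3 and 74.3 in scrambled and 64.5 and 66.5 in Chd4 shRNA libraries. The BRM014 and DMSO libraries overlapped (0.08 ± 0.13, adjusted p = 0.785, n = 2 and 2). The Chd4 shRNA libraries lay below both scrambled ones by a log2 fold change of -0.26 ± 0.13, and with the ERCC scalings over abundant RNAs and over plain sums the change was 0.20 and 0.34. Gart starts 554 bases from Son, on the opposite strand, and is overlapped by the opposite-strand gene Gm15964, whose mean count was 152 against 976 for Gart. Which strand was counted is not given in the sources used here, so reads in such overlaps could belong to either gene.

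Pfas, the glutamine-dependent synthase of the next step, was the exception to the downward direction. It had 37.9 and 45.7 CPM in DMSO, 46.9 and 38.6 with BRM014, 56.4 and 40.9 in scrambled, and 61.7 and 66.8 in the Chd4 shRNA libraries. The last 2 were the highest of the 8, and the other 3 groups overlapped each other. The change was 0.40 ± 0.16 with the Chd4 shRNA and 0.03 ± 0.15 with BRM014 (adjusted p = 0.955, n = 2 and 2). The scrambled libraries differed from each other by more than those of any other group for this gene, with an SD of 11 around a mean of 48.6. Without scrambled replicate 1 the Chd4 shRNA change was 0.65, and without scrambled replicate 3 it was 0.19. Background would make up 14.1% and 14.2% of the Pfas counts in the Chd4 shRNA libraries. With it subtracted from the gene count but not from the library total, these libraries had 6.68 and 7.22 CPM per kb and the scrambled ones 6.96 and 4.94. These values overlap, but as the Chd4 shRNA totals hold more background, they are not set on equal totals. The 3 spike-in scalings gave 0.59, 0.87 and 1.02, and genes at 3-fold above background 0.03. Scaling over all genes with background included, or with no filter on low counts, gave -0.95 and -1.11. With those scalings the median expressed gene stood at -1.34 and -1.5 on the log2 scale.

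Paics, which carries out a pair of consecutive steps in the middle of the route, the carboxylation of AIR and the addition of aspartate, was the lowest-standing member. It had 3195 and 4068 counts in DMSO, 3173 and 4552 with BRM014, 1524 and 1688 in scrambled and 319 and 334 in the Chd4 shRNA libraries. As CPM these were 198 and 231, 253 and 257, 175 and 190, and 51.5 and 55.4. No 2 groups overlapped, and the order from low to high was Chd4 shRNA, scrambled, DMSO and BRM014. With the Chd4 shRNA the change was -1.77 ± 0.14, the 24th lowest of the 8017 expressed genes, so that 0.299% stood at or below it. It was -1.65 with background subtracted, -1.17 to -3.28 over the other scalings and filters, and -1.83 to -1.71 with each library left out in turn. With BRM014 it was 0.25 ± 0.13 in the opposite direction (adjusted p = 0.279, n = 2 and 2), with both libraries above both DMSO libraries.

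Adsl and Atic complete the path to IMP. Adsl, a lyase that also acts in the making of AMP, had 55.4 and 60.8 CPM in DMSO, 52.5 and 54.7 with BRM014, 47.2 and 42.0 in scrambled and 38.6 and 38.0 in Chd4 shRNA libraries. Each treated pair lay below its controls, by -0.12 ± 0.12 with BRM014 (adjusted p = 0.659, n = 2 and 2) and by -0.22 ± 0.14 with the Chd4 shRNA. Atic, which adds the last formyl group and closes the ring, had 40.4 and 48.6 in DMSO, 41.8 and 38.3 with BRM014, 42.0 and 46.8 in scrambled and 26.8 and 31.8 in Chd4 shRNA libraries. Only the Chd4 shRNA libraries stood clear of their controls, at -0.60 ± 0.15, or -0.87 with background subtracted, which would be 32.6% and 29.97% of the Atic counts there. With BRM014 the change of Atic was -0.15 ± 0.13 (adjusted p = 0.571, n = 2 and 2). With plain ERCC sums the changes under the Chd4 shRNA were 0.37 for Adsl and 0.01 for Atic. Without scrambled replicate 1 the Adsl change was -0.13.

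**Figure D3:**
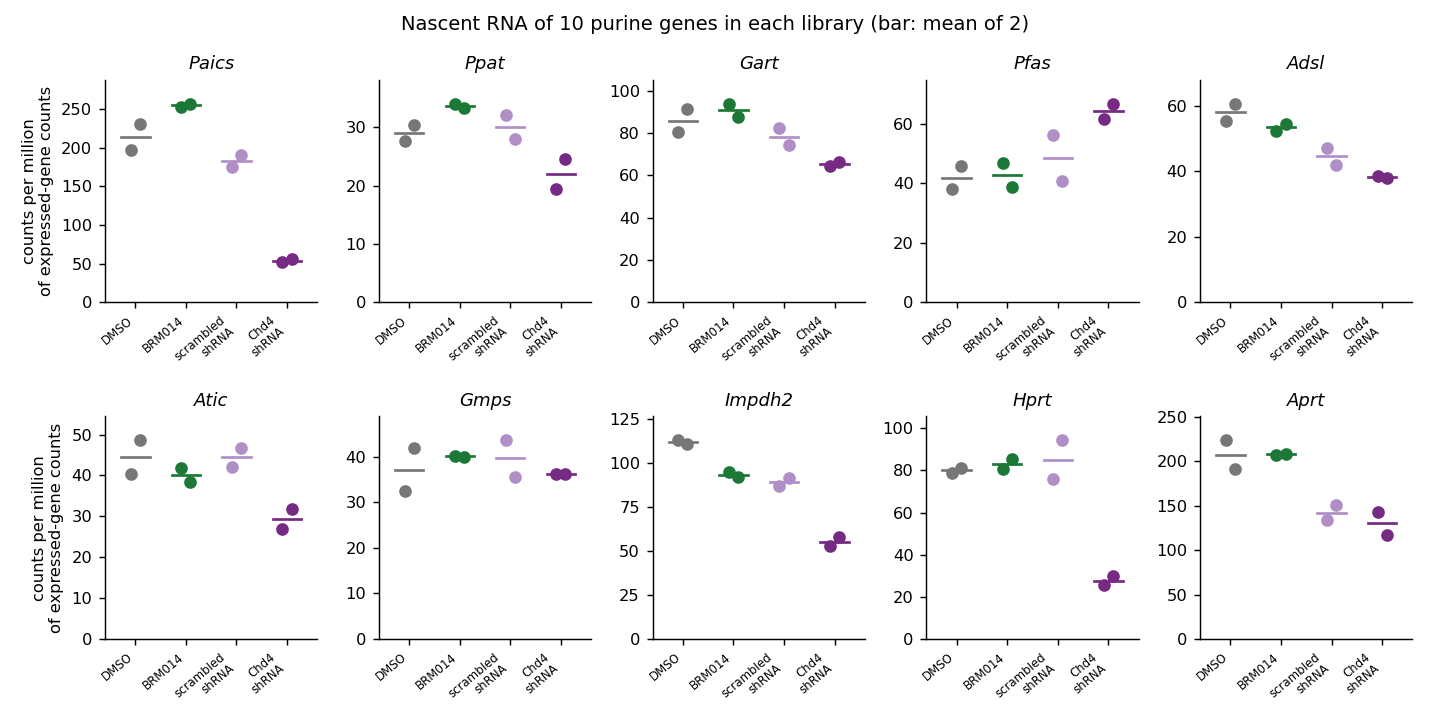
CPM of each of the 10 genes, with 1 point per library and a bar at the mean of 2, each panel starting at 0. The Chd4 shRNA libraries are lowest for Paics (51.5 and 55.4), Hprt (25.7 and 29.7), Ppat, Gart, Adsl, Atic and Impdh2. They are highest for Pfas (61.7 and 66.8), while those of Gmps overlap or lie between the other groups.

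From IMP to GMP, Impdh2 and Gmps act in turn. Impdh2, the dehydrogenase that limits the rate of guanine nucleotide synthesis, had 113 and 111 CPM in DMSO, 94.8 and 91.9 with BRM014, 86.6 and 91.5 in scrambled and 52.8 and 57.7 in Chd4 shRNA libraries. It was below its controls in both comparisons, without overlap. The BRM014 change was -0.26 ± 0.12 (unadjusted p = 0.0461, adjusted p = 0.228, n = 2 and 2) and the Chd4 shRNA change was -0.69 ± 0.13. The latter was -0.55 with background subtracted, -0.23 with TMM over abundant ERCC RNAs and -0.08 with plain ERCC sums. Gmps, which adds the amino group of GMP, had 32.4 and 41.9 in DMSO, 40.2 and 40.04 with BRM014, 43.6 and 35.7 in scrambled and 36.2 and 36.3 in Chd4 shRNA libraries. On this scale no group of Gmps stood clear of its controls, with changes of 0.11 ± 0.14 under BRM014 (adjusted p = 0.725, n = 2 and 2) and -0.13 ± 0.15 under the Chd4 shRNA. The latter was 0.0541, 0.32 and 0.47 with the 3 spike-in scalings and 0.0232 without scrambled replicate 1. Per 1000 ERCC counts, with background included, Gmps had 6.28 and 9.70 counts in the Chd4 shRNA libraries, above the 6.10 and 5.39 in scrambled. Background would make up 24.5% and 26.7% of the Gmps counts in the Chd4 shRNA libraries. With it subtracted from the gene count but not from the library total, Gmps had 3.37 and 3.28 CPM per kb there. Both were below the 5.23 and 4.19 in scrambled, again on unequal totals.

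In salvage, Hprt and Aprt parted. Hprt, which recycles hypoxanthine and guanine, had 1278 and 1429 counts in DMSO, 1012 and 1512 with BRM014, 662 and 836 in scrambled and 159 and 179 in Chd4 shRNA libraries. As CPM these were 79.0 and 81.2, 80.7 and 85.4, 76.0 and 94.3, and 25.7 and 29.7. The first 3 groups overlapped, and both Chd4 shRNA libraries lay far below all others. The change with the Chd4 shRNA was -1.62 ± 0.15, the 33rd lowest of 8017, with 0.412% at or below it. It was -1.48 with background subtracted, -1.02 to -3.13 over the other scalings and filters, and -1.77 to -1.46 with each library left out in turn. With BRM014 it was 0.05 ± 0.13 (adjusted p = 0.877, n = 2 and 2).

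Aprt had 224 and 191 CPM in DMSO, 207 and 208 with BRM014, 134 and 151 in scrambled and 143 and 117 in Chd4 shRNA libraries. Here the drug groups overlapped each other, the shRNA groups overlapped each other, and all 4 shRNA libraries lay below the 4 drug and solvent libraries. The changes were 0.0018 ± 0.14 with BRM014 (adjusted p = 0.997, n = 2 and 2) and -0.13 ± 0.14 with the Chd4 shRNA. After background subtraction the latter was 0.07, with the 3 spike-in scalings it was 0.0352, 0.28 and 0.43, and without Chd4 shRNA replicate 4 it was 0.0086.

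Ratios between 2 genes of the same library do not depend on the scaling. The Paics count was 7.16 and 7.59 times the Ppat count in DMSO, 7.43 and 7.72 times with BRM014, 5.44 and 6.81 times in scrambled and 2.66 and 2.26 times in Chd4 shRNA libraries. For the pair that starts back to back, the ratio under the Chd4 shRNA was thus 2.49-fold lower than in scrambled (log2 -1.31), or 2.09-fold lower with background subtracted (log2 -1.07). Paics and Ppat share 272 bases on opposite strands, with mean counts of 2357 and 349. Ppat also shares 19387 bases with the opposite-strand gene 2310040G07Rik, whose mean count was 17.6. Which strand was counted is not given, so reads in these overlaps could belong to either gene. The Hprt count was 0.353 and 0.424 of the Aprt count in DMSO, 0.390 and 0.410 with BRM014, 0.569 and 0.626 in scrambled and 0.179 and 0.255 in Chd4 shRNA libraries. That ratio was 2.80-fold lower under the Chd4 shRNA than in scrambled (log2 -1.48), and with BRM014 it overlapped DMSO. The count of Paics was 0.7995 and 0.833 of that of Gart in Chd4 shRNA libraries and 2.13 and 2.57 times it in scrambled. As Paics and Hprt were known to be low, these ratios are descriptions. An exact two-sided permutation test of 2 against 2 libraries could in any case not go below 0.333.

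**Figure D4:**
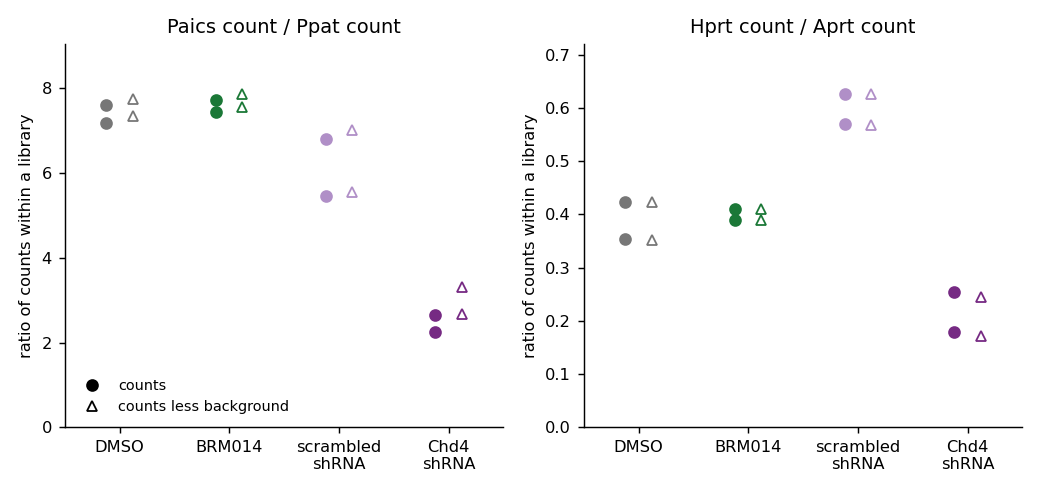
Count of Paics over count of Ppat (left) and count of Hprt over count of Aprt (right) in each of the 8 libraries, from counts (circles) and counts less background (open triangles), with axes starting at 0. Both ratios are lowest in the Chd4 shRNA libraries, at 2.26 and 2.66 and at 0.179 and 0.255 from counts, and the BRM014 libraries overlap those with DMSO.

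Paics made up 22.3% and 24.8% of the counts of the 10 genes in DMSO, 26.8% and 27.5% with BRM014, 22.6% and 24.0% in scrambled and 9.90% and 10.6% in Chd4 shRNA libraries. Pfas made up 11.9% and 12.8% in the latter against 7.28% and 5.14% in scrambled. Measured against the spike-in RNAs, which were added per cell, the 10 genes together had 85.8 and 110.6 counts per 1000 ERCC counts in DMSO, 98.8 and 104.7 with BRM014, 108.4 and 120.1 in scrambled and 90.4 and 139.8 in Chd4 shRNA libraries. Each treated group overlapped its own controls, with log2 ratios of 0.06 for BRM014 and -0.02 for the Chd4 shRNA. On the same scale, with background included, Paics (-1.21) and Hprt (-1.05) stayed below scrambled without overlap. Pfas (0.99), Gmps (0.44), Aprt (0.43) and Adsl (0.35) lay above scrambled without overlap. Background would make up 24.5% and 26.7% of the Gmps counts in the Chd4 shRNA libraries, against 2.82% and 4.71% in scrambled. For Adsl it would be 16.0% and 17.7% against 1.81% and 2.78%. The separation of Gmps and Adsl is thus given only for counts that include background. Ppat, Gart, Atic and Impdh2 overlapped scrambled on this scale. Spike-in totals of the Chd4 shRNA libraries were the lowest of the 8, at 35651 and 22573 counts, and the 2 libraries differed from each other on this scale.

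The genes whose pattern over the 8 libraries was most like that of Paics, by Pearson correlation of log2 CPM among 5130 expressed genes with a protein-coding symbol, were Pgk1 (r = 0.999), Atp5a1 (0.995), Rpl5 (0.995), Prkag1 (0.995) and Atp5b (0.995). Pgk1 is a glycolytic kinase, Atp5a1 and Atp5b are subunits of the mitochondrial ATP synthase, Rpl5 is a ribosomal protein and Prkag1 a subunit of AMP-activated kinase. Their log2 fold changes under the Chd4 shRNA lay between -1.08 and -0.62, less than that of Paics. Most like Hprt were Mis18a (0.999), Pcna (0.997), Ech1 (0.996), Ranbp1 (0.995) and Nup37 (0.995), with changes from -1.45 to -0.75. Paics and Hprt correlated with each other at 0.973, Paics with Ppat at 0.892 and Paics with Pfas at -0.826. These values describe 8 libraries in 4 groups and rest largely on the distance between the Chd4 shRNA libraries and the rest.

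Of 40 other purine genes in the matrix, covering PRPP supply, interconversion, breakdown and salvage, 23 were expressed. Under BRM014, 0 of them were higher and 1 lower, where 2.46% and 4.69% of expressed genes were. This was Nt5c, a nucleotidase that removes phosphate from deoxynucleotides, with 24.7 and 19.5 CPM in DMSO and 14.8 and 14.6 with BRM014 (-0.59 ± 0.15, adjusted p = 0.021, n = 2 and 2). Its call was lost with DESeq2 (adjusted p = 0.063), without BRM014 replicate 1 (0.0949), without BRM014 replicate 2 (0.181) and without DMSO replicate 1 (0.122), and without DMSO replicate 2 there were 5 higher genes in the list. Prps1, the synthetase that makes PRPP and a gene chosen here after its values were seen, had a BRM014 change of 0.38 ± 0.13 (adjusted p = 0.0911, n = 2 and 2).

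Under the Chd4 shRNA, 3 of these 23 genes were higher and 6 lower, where 20.4% and 20.2% of expressed genes were (40.6% in either direction), with a median of -0.08. Nme4, the mitochondrial nucleoside diphosphate kinase, fell from 51.7 and 60.1 CPM in scrambled to 24.6 and 21.9 (-1.27 ± 0.15, adjusted p = 3.7e-06, n = 2 and 2). Prps1 fell from 36.7 and 43.1 to 21.0 and 22.7 (-0.87 ± 0.15, adjusted p = 0.00018). Nt5c rose from 16.9 and 22.6 to 42.5 and 36.1 (0.99 ± 0.16, adjusted p = 8.57e-05), the direction opposite to that under BRM014, although the difference between both changes was not tested. With TMM over all genes or no filter on low counts, the Chd4 shRNA change of Nt5c was -0.36 and -0.51. Adssl1, a synthetase on the way to AMP, rose from 12 and 21 counts to 36 and 40 (1.72 ± 0.30, adjusted p = 0.000159), of which background would make up 39.4% and 37.7%, and its call was lost with the same 2 settings (adjusted p = 0.275 and 0.608). The falls depended on the scale. With each of the 3 spike-in scalings 0 of the 23 genes were called lower, and with all genes in the scaling 21 were. Over all genes fitted, 21734 of 35426, 1454 of 8017 and 2874 of 8017 were called in either direction with the spike-in scalings. With all genes in the scaling 22627 of 35426 were. Without Chd4 shRNA replicate 1 the count of lower genes was 3.

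Folate enzymes supply the formyl groups of the purine ring. Of 15 such genes, 8 were expressed. Under BRM014 0 were higher and 0 lower, where 2.46% and 4.69% of expressed genes were. An unadjusted p under 0.05 was reached by 2 (1678 of all 8017), and 0 were called with DESeq2 (303 of all 8017). Under the Chd4 shRNA 1 was higher and 6 were lower, where 20.4% and 20.2% of expressed genes were, with a median of -0.45. The higher gene was Aldh1l1, named after its values were seen (0.46 ± 0.16, adjusted p = 0.0224, n = 2 and 2). The count of higher folate genes was 0 with DESeq2, with background subtracted, without Chd4 shRNA replicate 1, without Chd4 shRNA replicate 4 and without scrambled replicate 3. Aldh1l1 itself was -0.89 with scaling over all genes with background included and -1.04 with no filter on low counts. The lowest p belonged to Mthfd2, the mitochondrial methylene-folate dehydrogenase, at -0.63 ± 0.14 (adjusted p = 0.00118, n = 2 and 2). Shmt1 and Shmt2, the cytosolic and mitochondrial serine hydroxymethyltransferases, changed by -0.59 ± 0.14 (adjusted p = 0.00244) and -0.45 ± 0.13 (adjusted p = 0.00921). With each spike-in scaling 0 of the 8 were lower, and without either Chd4 shRNA replicate 1 or replicate 4 the count was 3.

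Among 25 genes of pyrimidine and deoxynucleotide synthesis, 18 were expressed. Under BRM014, 0 were higher and 0 lower, where 2.46% and 4.69% of expressed genes were. An unadjusted p under 0.05 was reached by 1 (1678 of all 8017), and 0 were called with DESeq2 (303 of all 8017). Under the Chd4 shRNA 0 were higher and 11 lower, where 20.4% and 20.2% of expressed genes were, with a median of -0.41. Dut, which clears dUTP, fell from 60.7 and 88.9 CPM to 24.9 and 24.5 (-1.60 ± 0.17, adjusted p = 5.36e-07, n = 2 and 2). Rrm2, the small subunit of ribonucleotide reductase, fell by 1.19 ± 0.16 on the log2 scale (adjusted p = 7.65e-06) and Upp1, a uridine phosphorylase, by 1.02 ± 0.14 (adjusted p = 1.09e-05). Nudt5, a hydrolase of ADP-ribose that is not itself a pyrimidine enzyme, fell by 0.63 ± 0.14 (adjusted p = 0.00122). With each spike-in scaling 1 of the 18 was lower, Dut. Without Chd4 shRNA replicate 1 the count was 6.

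**Figure D5:**
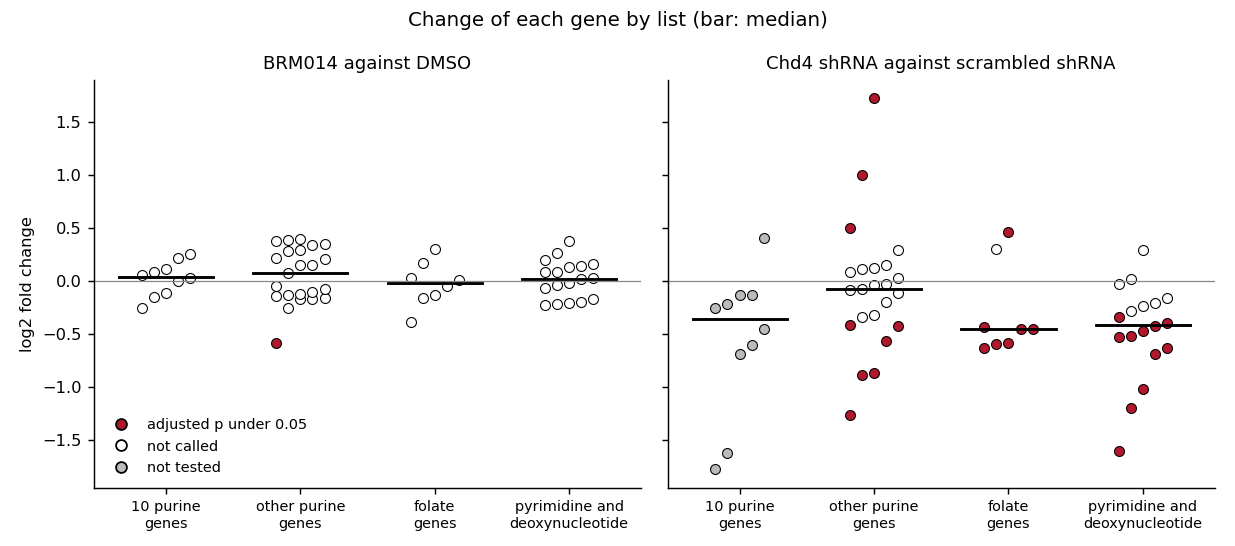
Log2 fold change of every expressed gene of the 4 lists under BRM014 (left) and the Chd4 shRNA (right), with a bar at each median, filled red for an adjusted p under 0.05, white for genes not called and grey for the 10 genes left untested. Under BRM014 only Nt5c is red, and under the Chd4 shRNA the medians are -0.36, -0.08, -0.45 and -0.41 from left to right.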

How the data were processed

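The authors' deposited values are raw read counts per gene and per ERCC RNA. Per the submitters' processing notes, Trim Galore 0.6.4, STAR 2.7.1a, featureCounts and edgeR 3.32.1 were used on mm10. Strand setting and treatment of multiply aligned reads are not given in the sources used here. One column of either shRNA group (r4 with Chd4, r3 with scrambled) carries a number found in no sample title and was placed by its group name. The 40 chromatin samples were not analysed here.

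One edgeR 4.0.16 fit (quasi-likelihood F test, R 4.3.3) took all 8 libraries on 8017 genes that passed its default filter and had a mean count at least 10-fold above background per kb of exon (1434 receptor genes, 5330.3 kb), with TMM scaling of those genes. Adjusted p-values are Benjamini-Hochberg over all 8017, called under 0.05, and SEs come from the F statistic. The fit was tested on simulated data. With 2 libraries per group, p-values measure the spread between these libraries of 1 line.

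The members and gene lists were chosen with earlier results of these data known. Named were all members, up to 4 called genes of smallest p per list and comparison, the 5 most similar genes of Paics and Hprt, and overlapping genes. Results of 2 genes that this rule names are not reported here. Alternatives were 3 ERCC scalings, TMM over all filtered genes, other filters, background subtraction, DESeq2 1.42.0, each comparison on its own libraries, replicate blocks and each library left out. Same-numbered BRM014 and DMSO libraries deviated from their group means with a correlation of -0.17 over 8017 genes. Promoter windows are from RefSeq (GRCm38.p6).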

Additional observations from a re-analysis of the deposited data

How the results depend on the processing

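Over the alternatives, 737 of 922 values counted as unchanged, by a rule set for each kind of value. A tested gene had to keep its direction and call, however far it moved. A count of genes had to stay within a set ratio of the main count. Any other value had to move by less than the spread between libraries. Of the rest, 115 moved past these limits, 40 lost a call and 30 changed sign. For the 10 genes under BRM014, 0 were called higher and 0 lower in each alternative run, leave-one-out fits included. Paics and Hprt were below scrambled under each alternative run. The cause of the changes below was not tested. Scalings over all genes, or with no filter, also take in genes at background level. With them the median expressed gene stood at -1.34 and -1.5 under the Chd4 shRNA.

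With TMM-scaled ERCC totals, the median of the 10 genes was 0.18 under BRM014 and -0.17 under the Chd4 shRNA, and Gmps (0.0541) and Aprt (0.0352) changed sign under the Chd4 shRNA. With TMM over abundant ERCC RNAs the Chd4 shRNA median was 0.11, with Ppat 0.0252, Gart 0.20, Adsl 0.22, Gmps 0.32 and Aprt 0.28. With plain ERCC sums it was 0.26, with Ppat 0.17, Gart 0.34, Adsl 0.37, Atic 0.0113, Gmps 0.47, Aprt 0.43 and Shmt2 0.14. In the order of these 3 scalings, other purine genes called higher under the Chd4 shRNA were 1, 2 and 4, folate genes 0, 0 and 2, and pyrimidine genes 0, 0 and 1. Those called lower were 0, 0 and 0 for other purine genes, 0, 0 and 0 for folate genes, and 1, 1 and 1 for pyrimidine genes. Over all genes fitted, 21734 of 35426, 1454 of 8017 and 2874 of 8017 were called in either direction under the Chd4 shRNA. Under BRM014 0 other purine genes were lower with any of the 3, where 2 of 35426, 68 of 8017 and 106 of 8017 genes were called.

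With TMM over all genes, 9 of the 10 genes were at -1 or lower under the Chd4 shRNA, their median was -1.71, Pfas was -0.95 and Nt5c -0.36. Other purine genes called were then 0 higher and 21 lower, folate genes 0 and 8, pyrimidine genes 0 and 18. Over all 35426 genes fitted, 22627 were called in either direction. With no filter on low counts, 10 were at -1 or lower, the median was -1.86, Pfas was -1.11 and Nt5c -0.51, with 0 and 22, 0 and 8, and 0 and 18 called. Of the 54064 genes fitted with no filter, 20618 were called in either direction. Under BRM014 0 other purine genes were lower with either setting, where 984 of 35426 and 869 of 54064 genes were called. At 3-fold above background the Chd4 shRNA median was -0.73 and 3 genes were at -1 or lower. Called were 2 higher and 14 lower other purine genes, 0 higher folate genes and 16 lower pyrimidine genes, where 7762 of 15464 genes were. Under BRM014 2 other purine genes were higher with this filter, where 1301 of 15464 genes were called in either direction. At 30-fold, Aprt under the Chd4 shRNA was 0.0438, with 4 other purine, 3 folate and 5 pyrimidine genes lower and 0 folate genes higher. Of the 3717 genes fitted, 1717 were called, and Ppat, Pfas, Atic and Gmps were not among those fitted. With background subtracted, Aprt was 0.0748 and the log2 ratio of Paics to Ppat was -1.07. Here 2 other purine genes were higher, 4 folate genes lower and 0 folate genes higher, where 3332 of 8017 genes were called. With DESeq2 0 other purine genes were lower under BRM014, where 303 of 8017 genes were called in either direction. It gave 0 higher folate genes under the Chd4 shRNA, where 2728 of 8017 genes were called. On its own 4 libraries Aprt was -0.0173 under BRM014.

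With each library left out in turn, the ranges under BRM014 were -0.10 to 0.19 for Pfas, -0.0078 to 0.18 for Gart, -0.0636 to 0.31 for Gmps and -0.10 to 0.12 for Aprt. Other purine genes called were 0 to 5 higher and 0 to 1 lower, folate genes 0 to 1 in each direction, and pyrimidine genes 0 to 1 higher. Under the Chd4 shRNA, Aprt ranged from -0.29 to 0.0086 and Gmps from -0.27 to 0.0232. Called genes were 3 to 6 lower in the other purine list, 0 to 1 higher and 3 to 6 lower in the folate list, and 0 to 1 higher and 6 to 12 lower in the pyrimidine list.

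The replicate block could be fitted for BRM014 and DMSO, whose columns share the numbers 1 and 2. It gave 0 called genes of the 10, a median of 0.04 and 1 lower gene among the other purine genes, and 679 called genes in all against 573 without the block, but the numbers do not pair the libraries by the correlation given above. No paired analysis was possible for the shRNA groups because their columns share 1 number. A crossed replicate block, added after the data were seen, called 778 genes in all, 0 of the 10, 2 other purine genes higher and 1 lower, and 1 folate gene lower.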
